A study of Mus musculus with 18 samples.

Results

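Of 1121 TDG regions on chromosomes 1 to 19 of the mouse cortex, 417 (37.2%) were overlapped by an H3K4me1 peak and 704 were not. A TDG region is a stretch where TDG peaks of the 3 animals overlap and were merged, and a single peak also counts as a region. The 417 regions were chosen by 2 sets of peak calls, the 3 TDG lists and the 3 H3K4me1 lists, with at least 1 bp of overlap in any library. Counts of TDG with H3K4me1 therefore describe the choice and carry no test, whereas H3K27ac, PolII_S5P and MBD3 took no part in it.

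All libraries were chromatin immunoprecipitation sequencing (ChIP-seq) of cerebral cortex from wild-type female C57BL/6J mice aged 14 weeks, bought as frozen tissue. The animals carry the numbers 5, 7 and 9, and each gave 1 library for each of 5 antibodies, against TDG, H3K4me1, H3K27ac, RNA polymerase II with phosphorylated serine 5 (PolII_S5P) and MBD3. No animal was treated or mutated, so the groups compared are TDG regions with H3K4me1 and TDG regions without it, within the same libraries. The 3 input samples were not analysed here. The cortex was used whole, so fewer cells with a protein at a site and less of it per cell cannot be told apart. The labelled tissue was not checked against marker genes, because no gene annotation on the build of the peak lists was used, and regions are given by position on mm39 for the same reason.

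TDG, thymine DNA glycosylase, removes thymine from G:T mismatches and also removes 5-formylcytosine and 5-carboxylcytosine, the oxidised forms of methylcytosine made by TET enzymes, so that base excision repair can put back an unmethylated cytosine. H3K4me1, monomethylation of histone H3 at lysine 4, lies at enhancers and on the flanks of active promoters, whose centres carry trimethylation instead. H3K27ac marks enhancers and promoters in the active state. PolII_S5P is the initiating form of the polymerase, and MBD3 is a subunit of NuRD, a complex that moves nucleosomes and removes acetyl groups from histones. The title of the series names TDG at active promoters and a link to MBD3/NuRD.

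The lists differed in length. TDG had 125, 240 and 934 autosomal peaks in animals 5, 7 and 9, and H3K4me1 had 33744, 45575 and 22555. The other lists held 57846 to 67877 peaks for H3K27ac, 4351 to 19509 for PolII_S5P and 38821 to 61187 for MBD3. Read depth is not known from the lists, and the part that depth or antibody yield plays in these numbers was not tested. The MBD3 and TDG lists spell unplaced contigs differently from the other lists. Whether they were also processed differently was not tested, and such a difference and the antibody cannot be told apart.

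Most TDG regions with H3K4me1 came from the TDG library of animal 9. Of the 417, 380 (91.1%) had a TDG peak in animal 9 only, against 440 of the 704 regions without H3K4me1 (62.5%). Animal 5 alone gave 10 of the 417 and animal 7 alone gave 11. Read by library, H3K4me1 lay at 380 of the 820 regions found in animal 9 only (46.3%), at 10 of 25 found in animal 5 only (40%) and at 11 of 155 found in animal 7 only (7.097%). The peaks of animal 7 thus fell on H3K4me1 least often, although its H3K4me1 list was the longest.

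The same order held whichever animal supplied the H3K4me1 list. In the TDG list of animal 5, 16.8%, 15.2% and 12.8% of peaks overlapped the H3K4me1 lists of animals 5, 7 and 9. For TDG of animal 7 these shares were 5.42%, 5.83% and 5.0%. For TDG of animal 9 they were 27.1%, 30.7% and 28.2%. Exact binomial 95% intervals for the lists of the same animal were 10.7 to 24.5% in animal 5, 3.23 to 9.59% in animal 7 and 25.3 to 31.2% in animal 9. They cover counting error only and describe single libraries. With every H3K4me1 list shortened to its 22555 strongest peaks, the shares lay between 12% and 12.8% for TDG of animal 5, between 2.08% and 5% for animal 7, and between 19.1% and 28.2% for animal 9.

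**Figure D1:**
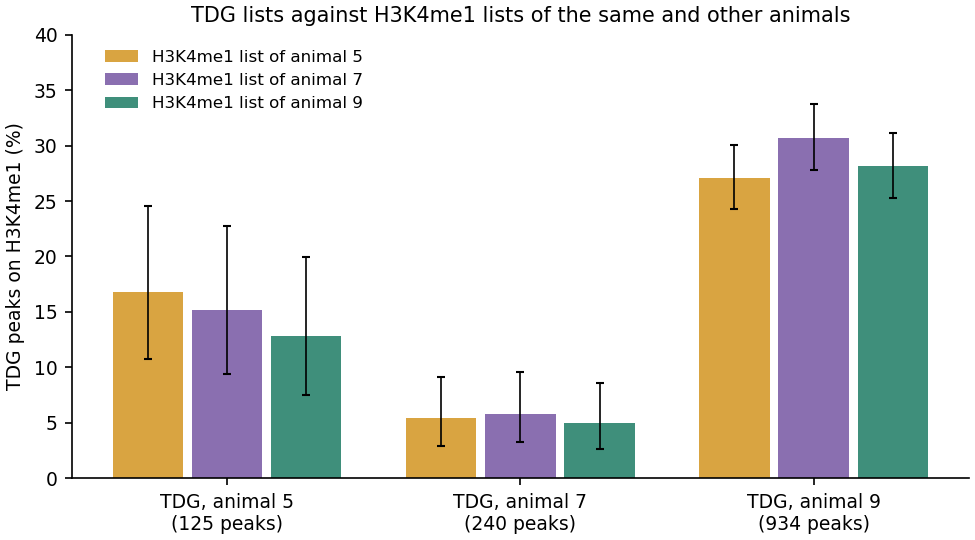
Percent of the peaks of each TDG list (groups of bars, animals 5, 7 and 9) that overlap each H3K4me1 list (colours) by at least 1 bp. Lines are exact binomial 95% intervals, and the bars within a TDG list are alike while the lists of animals 5, 7 and 9 stand apart, at 16.8%, 5.83% and 28.2% for the H3K4me1 list of the same animal.

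H3K4me1 itself recurred at many of these regions. An H3K4me1 peak was called in all 3 animals at 147 of the 417 (35.3%), in 2 animals at 151 (36.2%) and in 1 animal at 119 (28.5%). The H3K4me1 libraries of animals 5, 7 and 9 covered 273, 309 and 280 of them. At 287 regions (68.8%) TDG and H3K4me1 peaks were found in the same animal, and at the other 130 (31.2%) only in different animals. The H3K4me1 peaks here were wider and stronger than most of their list. Their median widths were 652, 915 and 670.5 bp in animals 5, 7 and 9, against list medians of 456, 527 and 472 bp, and their median fold enrichments stood at the 64.4, 65.2 and 73.7 percentiles of their lists. A wide peak has more room to meet a TDG region, so these widths are a description.

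The strongest TDG peaks of each list were not on H3K4me1, and in animal 5 the peaks on H3K4me1 lay mostly in the weaker part of the list. The fold enrichment is the authors' value, the ratio of the ChIP pileup at a peak to the local background, and it was read within 1 list at a time. The strongest TDG peak with H3K4me1 had a fold of 8.11 in animal 5, 9.27 in animal 7 and 9.06 in animal 9, while the strongest without H3K4me1 had folds of 25.9, 22.7 and 39.6. A fold above 10 was found at 0 of 22, 0 of 20 and 0 of 392 peaks with H3K4me1, against 26 of 103, 25 of 220 and 56 of 542 peaks without it.

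Median folds showed this in 1 of the 3 animals, whereas median −log10 q values were lower with H3K4me1 in all 3. The median −log10 q was 5.70, 3.24 and 3.32 with H3K4me1 in animals 5, 7 and 9, against 33.5, 5.49 and 3.63 without. In animal 5 the median fold was 4.95 with H3K4me1 (range 1.23 to 8.11) and 7.40 without (1.29 to 25.9). The medians of animal 7 were 4.63 on both sides, with ranges of 1.34 to 9.27 with H3K4me1 and 1.27 to 22.7 without. Both medians were 4.47 in animal 9, with a range of 1.79 to 9.06 with H3K4me1 and 1.43 to 39.6 without. In every list the peaks with H3K4me1 spanned a narrower range than those without, and neither set was separate from the other. A range tends to widen with the number of peaks. There were 22, 20 and 392 peaks with H3K4me1 against 103, 220 and 542 without, so the ranges are a description.

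**Figure D2:**
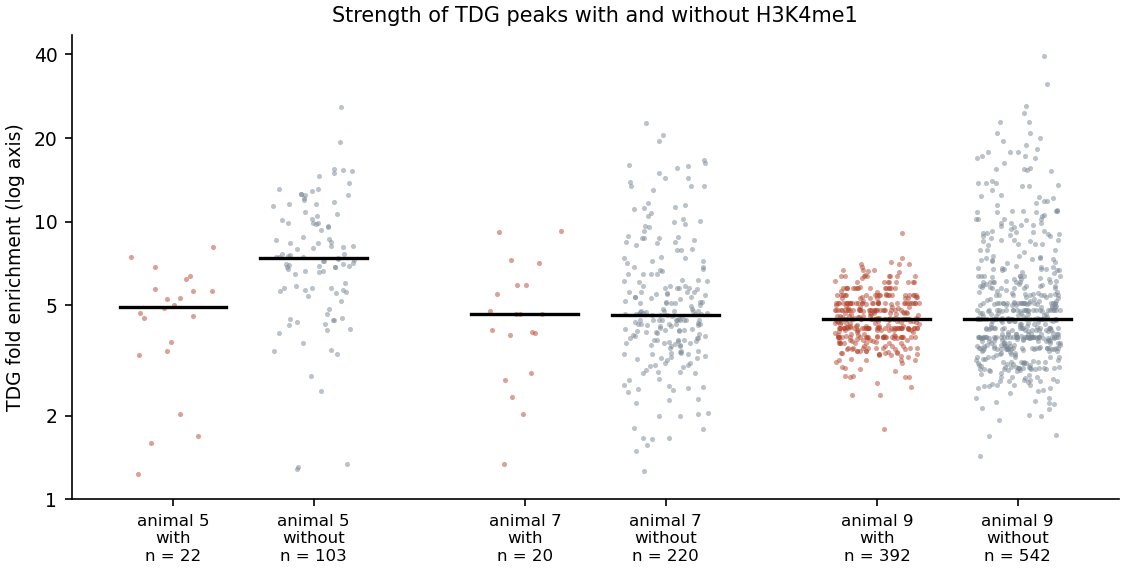
TDG fold enrichment of every autosomal TDG peak (log axis), with H3K4me1 (red) and without (grey), for animals 5, 7 and 9. Black lines are medians, and no red point lies above 10, where 26, 25 and 56 grey points lie.

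Within the list of animal 9, the share of TDG peaks with H3K4me1 was 29.03% in the weakest of 5 classes of nearly equal size, then 48.8%, 54.6% and 58.1%, and 18.3% in the strongest class, which began at a fold of 5.76. In animal 5 the weakest 2 classes held 7 and 10 peaks with H3K4me1 among 25 each, and the strongest class held 0 of 25. In animal 7 the 5 classes, from weak to strong, held 5, 4, 4, 5 and 2 of 48. The mean percentile of fold within the list was 26.4, 46.3 and 49.4 with H3K4me1 in animals 5, 7 and 9, against 55.5, 50.6 and 50.5 without. The difference averaged −11.5 ± 15.3 percentile points (SD, n = 3) and was lower in 3 of 3 animals, and the two-sided exact permutation test (sign flips within animals) gave p = 0.25, the smallest that 3 animals allow. It was −2.15 without animal 5. With regions within 100 kb counted once it was −6.78 and lower in 1 of 3 animals, and it was lower in 2 of 3 with the q threshold, summit, coverage, same-animal and equal H3K4me1 length settings. With each TDG list cut to its 125 strongest peaks, which was tried once the data had been seen, it was −26.8 and lower in 3 of 3 animals. These shortened lists held only 22, 11 and 11 peaks with H3K4me1 in animals 5, 7 and 9.

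The 2 kinds of region had similar widths. The median width was 287 bp (range 209 to 1282) for regions with H3K4me1 and 284.5 bp (range 206 to 1934) for regions without. Width has no test here, since a wider region meets an H3K4me1 peak more easily.

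Few regions with H3K4me1 had TDG in more than 1 animal. TDG peaks in 2 or 3 animals were found at 16 of 417 regions with H3K4me1 (3.84%), against 105 of 704 without (14.9%) and 10.8% of all TDG regions. Of the 55 regions with TDG in all 3 animals, 1 had H3K4me1 and 54 did not. Within single lists the direction varied: 54.5%, 45% and 3.06% of TDG peaks with H3K4me1 lay in a region shared with another animal in animals 5, 7 and 9, against 85.4%, 34.5% and 18.8% of peaks without. The difference averaged −12.1 ± 20.9 percentage points (SD, n = 3) and was lower in 2 of 3 animals. It was −29.04 without animal 7, and with TDG lists of 125 peaks each it was −61.1 and lower in 3 of 3 animals. Those lists held only 22, 11 and 11 peaks with H3K4me1 in animals 5, 7 and 9. Recurrence is counted from the TDG lists that formed the regions, so these values are a description.

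The 16 regions shared between animals all had a called PolII_S5P peak, with no limit set on its fold. A PolII_S5P peak was called in 3 animals at 11 of them, in 2 at 3 and in 1 at 2, while H3K27ac was present at 10 (62.5%) and MBD3 at 12 (75%). Among the 401 regions with TDG in 1 animal, PolII_S5P lay at 27.7%, H3K27ac at 87.0% and MBD3 at 77.6%. Regions with PolII_S5P made up 24.5% of all 1121. These subsets were chosen after the data were seen, and their differences were not tested. The folds at the 16 shared regions were uneven. At chromosome 9, 124254277 to 124254617, PolII_S5P had folds of 1.75, 2.28 and 1.46 in animals 5, 7 and 9. The list medians were 3.82, 4.03 and 3.91. TDG there, at 1.23 in animal 5, and H3K27ac, at 1.29 in animal 7, had the lowest folds of their lists. H3K4me1, by which the region was chosen, was called there in animals 5 and 7 only. In both animals its fold was the lowest of the H3K4me1 list. At chromosome 7, 59419559 to 59419878, PolII_S5P instead had folds of 8.33, 11.9 and 9.25.

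The make-up of the 417 regions was led by H3K27ac. Counting peaks of any library, H3K27ac lay at 359 of 417 regions with H3K4me1 (86.1%) and at 339 of 704 without (48.2%), where 62.3% of all TDG regions had it. MBD3 lay at 323 (77.5%) and 411 (58.4%), against 65.5% of all regions. These counts weigh animal 9 most, which had TDG at 392 of the 417. Taken within animals, the difference in MBD3 of any library at TDG peaks averaged −2.81 points and was higher in 2 of 3 animals. PolII_S5P lay at 127 (30.5%) and 148 (21.0%). H3K27ac in all 3 animals was found at 289 regions with H3K4me1 (69.3%) and 235 without (33.4%). The counts for MBD3 in all 3 animals were 233 (55.9%) and 299 (42.5%), and for PolII_S5P they were 39 (9.35%) and 29 (4.12%).

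H3K27ac together with MBD3 and no PolII_S5P was the most common combination, at 206 regions with H3K4me1 (49.4%) and 183 without (25.99%). All 3 were present at 98 (23.5%) and 111 (15.8%), and H3K27ac alone at 44 (10.6%) and 39 (5.54%). None of the 3 was found at 26 regions with H3K4me1 (6.24%), against 226 without (32.1%), and MBD3 alone at 14 (3.36%) against 108 (15.3%). Among regions with H3K4me1, H3K27ac was more frequent the more animals had the H3K4me1 peak, at 76.5%, 84.1% and 95.9% for 1, 2 and 3 animals, an order that was not tested. The same steps gave 74.8%, 74.8% and 82.3% for MBD3 and 26.9%, 25.2% and 38.8% for PolII_S5P.

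The combination depended on the TDG library from which a region came. At the 380 regions with TDG in animal 9 only, H3K27ac lay at 87.6%, MBD3 at 79.2% and PolII_S5P at 25.0%, against 57.7%, 64.3% and 25.5% of the 440 such regions without H3K4me1. Here PolII_S5P was at about 1 region in 4 on either side. At the 37 regions with TDG in animal 5 or 7, PolII_S5P lay at 86.5%, H3K27ac at 70.3% and MBD3 at 59.5%, against 13.6%, 32.2% and 48.5% of the 264 such regions without H3K4me1. H3K27ac with MBD3 and no PolII_S5P thus accounted for 205 of the 380 (53.9%) and for 1 of the 37 (2.70%), while all 3 together accounted for 81 (21.3%) and 17 (45.9%). The 37 and the 264 regions pool animals 5 and 7, and 144 of the 264 had TDG in animal 7 only. Taken apart, these animals differed. In animal 5, MBD3 of any library lay at 63.6% of TDG peaks with H3K4me1 and 90.3% without, and H3K27ac at 72.7% and 65.0%. In animal 7 the shares were 50% and 41.4% for MBD3, and 65% and 25.5% for H3K27ac. The split was chosen after the data were seen and was not tested.

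**Figure D3:**
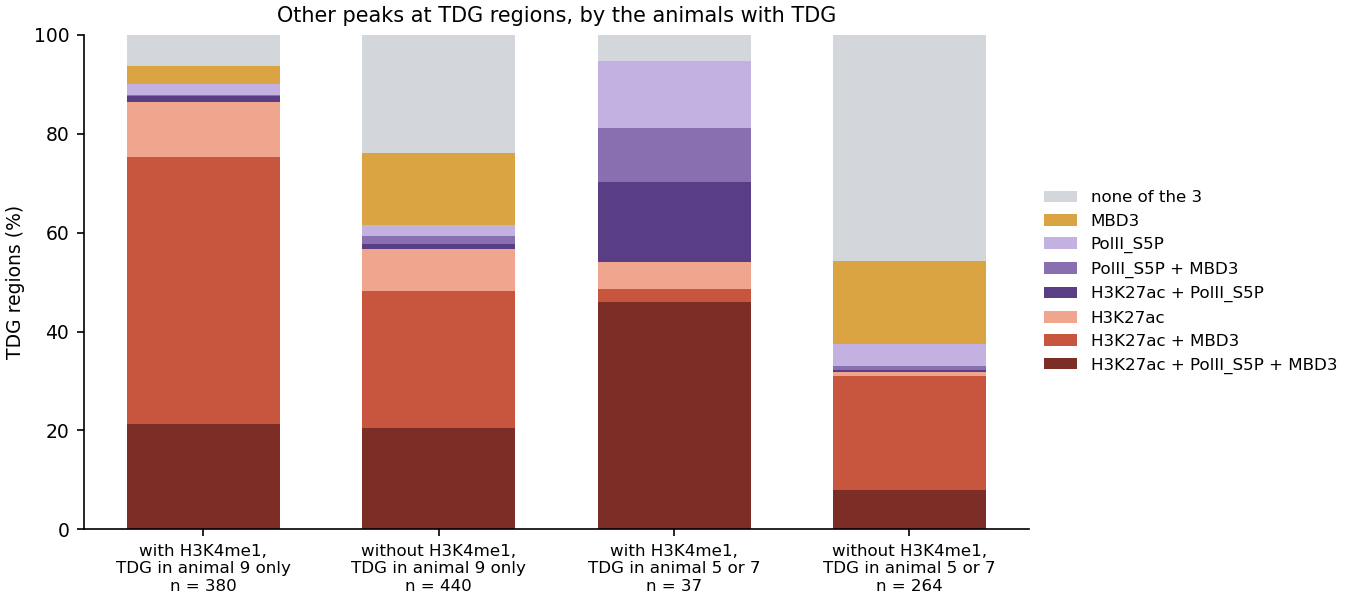
Percent of TDG regions with each combination of H3K27ac, PolII_S5P and MBD3 peaks of any library, with and without H3K4me1, for regions with TDG in animal 9 only and regions with TDG in animal 5 or 7. H3K27ac + MBD3 fills 53.9% of the first bar, and combinations with PolII_S5P fill 86.5% of the third.

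Compared within each animal, H3K27ac was more frequent at TDG peaks with H3K4me1 in 3 of 3 animals. In animal 5, 15 of 22 TDG peaks with H3K4me1 (68.2%) and 62 of 103 without (60.2%) overlapped an H3K27ac peak of that animal. In animal 7 it was 11 of 20 (55%) and 55 of 220 (25%). In animal 9 it was 310 of 392 (79.1%) and 269 of 542 (49.6%). The 2 sets overlap over animals, since the value of animal 7 with H3K4me1 lies below that of animal 5 without. The mean difference was 22.5 ± 12.6 percentage points (SD, n = 3; exact permutation p = 0.25). With TDG lists of 125 peaks each it was 9.89 points and higher in 2 of 3 animals. Animal 9 then had 54.5% of only 11 peaks with H3K4me1 and 55.3% of 114 without.

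PolII_S5P separated the 2 kinds of TDG peak in animals 5 and 7. In animal 5, 20 of 22 peaks with H3K4me1 (90.9%) overlapped a PolII_S5P peak of that animal, against 9 of 103 without (8.74%). The counts in animal 7 were 14 of 20 (70%) and 22 of 220 (10%). In animal 9, 80 of 392 (20.4%) and 105 of 542 (19.4%) did so. All values with H3K4me1 lay above all values without, by a wide gap in animals 5 and 7 and by 1.04 points in animal 9. The mean difference was 47.7 ± 41.9 points (SD, n = 3; exact permutation p = 0.25) and was 74.2 without animal 9. The strongest 125 TDG peaks of animal 9 differed more, with 36.4% of only 11 peaks with H3K4me1 and 11.4% of 114 without.

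The PolII_S5P lists of the other animals gave a similar picture. Of the 22 TDG peaks of animal 5 with H3K4me1, the PolII_S5P lists of animals 5, 7 and 9 covered 90.9%, 95.5% and 95.5%, against 8.74%, 19.4% and 11.7% of the 103 without. For TDG of animal 7 the same lists covered 50%, 70% and 65% with H3K4me1, against 4.55%, 10% and 7.73% without. For TDG of animal 9 they covered 9.69%, 16.8% and 20.4% with H3K4me1, against 4.98%, 17.5% and 19.4% without. The gap was thus wide for the TDG libraries of animals 5 and 7 with every PolII_S5P list, and narrow or reversed for that of animal 9. The part that the length of the TDG list or the strength of its peaks plays was not tested.

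MBD3 went in different directions in different animals. In animal 5, 4 of 22 TDG peaks with H3K4me1 (18.2%) overlapped an MBD3 peak of that animal, against 87 of 103 without (84.5%). In animal 7 it was 7 of 20 (35%) and 81 of 220 (36.8%), and in animal 9 it was 255 of 392 (65.1%) and 306 of 542 (56.5%). The mean difference of −19.8 ± 40.6 points (SD, n = 3) had an exact permutation p of 0.75. It was 6.92 without animal 5, −29.8 without animal 7 and −33.9 without animal 9. With only peaks of −log10 q 5 or more, and with TDG lists of 125 peaks each, it was −42.8 and −41.4 points and lower in 3 of 3 animals (exact permutation p = 0.25 each). The lists of 125 peaks held only 22, 11 and 11 peaks with H3K4me1 in animals 5, 7 and 9.

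**Figure D4:**
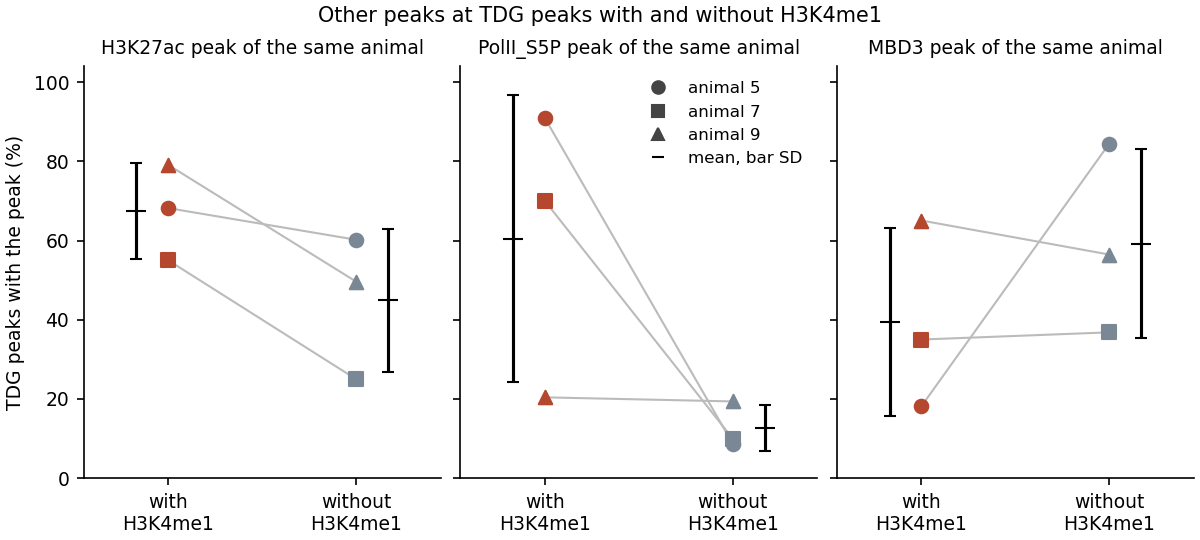
Percent of the TDG peaks of each animal (symbols) that overlap an H3K27ac, PolII_S5P or MBD3 peak of the same animal, for peaks with H3K4me1 (left in each panel) and without (right). Black marks are means with SD over 3 animals, and the lines cross for MBD3, where animal 5 had 18.2% with H3K4me1 and 84.5% without.

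Where another peak was present, it stood higher in its own list at regions with H3K4me1. This measure was added after the data were seen. The median H3K27ac peak was at the 83.0, 85.4 and 91.0 percentiles of the lists of animals 5, 7 and 9, against 78.6, 81.9 and 75.1 at regions without H3K4me1. For PolII_S5P the medians were 66.6, 72.8 and 74.0 with H3K4me1, against 31.8, 53.2 and 60.7 without. MBD3 stood at 80.1, 81.9 and 85.5 with H3K4me1, against 77.9, 77.3 and 58.5 without. All 9 differences were positive, with means of 7.97 ± 6.91, 22.6 ± 11.0 and 11.2 ± 13.7 percentile points (SD, n = 3 each; exact permutation p = 0.25 each).

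H3K4me1 usually covered the whole of a TDG region. It spanned 280 of the 417 over their full length (67.1%) and 366 over at least 0.5 of it (87.8%), and 11 regions had under 50 bp in H3K4me1, the least being 8 bp. TDG summits in an H3K4me1 peak of the same animal lay at a median of 45, 95 and 166.5 bp from its summit in animals 5, 7 and 9 (21, 13 and 202 summits). With the H3K4me1 peak cut into 5 equal parts, they lay in the middle part in 28.6%, 23.1% and 22.8% of cases and in the outer 2 parts in 42.9%, 46.2% and 38.1%, where those parts make up 20% and 40% of its length. The values of animals 5 and 7 rest on few summits, and no test was made.

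Regions without H3K4me1 often lay close to it. An H3K4me1 peak was within 1 kb of 167 of the 704 (23.7%), within 2 kb of 246 (34.9%) and within 10 kb of 416 (59.1%). H3K4me1 flanked 195 regions on 1 side and 51 on both sides within 2 kb. H3K27ac of any library was found at 71.8% of the regions flanked on 1 side, at 82.4% of those flanked on both sides and at 34.3% of the 458 with no H3K4me1 in that distance. Of the 54 regions without H3K4me1 that had TDG in all 3 animals, 23 (42.6%) had H3K4me1 within 2 kb. The line between the 2 kinds of region thus runs through some sites where TDG lies beside an H3K4me1 peak rather than in it.

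The regions on either side of this line can be named. Just inside the choice lay chromosome 13, 99502938 to 99503277, with 8 bp in H3K4me1 and a TDG fold of 5.09 in animal 9. Next came chromosome 13, 69038066 to 69038647, with 12 bp (fold 2.98), and chromosome 15, 68977013 to 68977367, with 13 bp (fold 3.83), both with TDG in animal 9. Just outside, at chromosome 5, 148902242 to 148902999, and at chromosome 9, 40257688 to 40257917, the gap to the nearest H3K4me1 peak was 1 bp, and at chromosome 19, 32270490 to 32270801, it was 2 bp. All 3 of these had a TDG peak in animal 9 only, with folds of 3.12, 3.84 and 3.83. H3K27ac was called in all 3 animals at each of the 6 regions. PolII_S5P was called in 2 animals at the region on chromosome 15 and in none at the other two just inside, and in 1, 3 and 1 animals at the 3 just outside.

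Seen from the H3K4me1 lists, the sites with TDG carried the other peaks more often than the rest of the H3K4me1 list. TDG regions met 270, 308 and 278 H3K4me1 peaks in animals 5, 7 and 9. H3K27ac of the same animal lay at 83.3%, 85.7% and 85.3% of these, against 58.5%, 53.4% and 53.3% of H3K4me1 peaks without TDG. MBD3 lay at 65.6%, 77.3% and 65.8%, against 29.9%, 29.5% and 18.5%. PolII_S5P lay at 15.6%, 22.7% and 26.6%, against 1.25%, 6.61% and 5.53%. For each antibody the 3 values with TDG lay above the 3 without.

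The differences were 29.7 ± 4.25 points for H3K27ac, 43.6 ± 6.86 for MBD3 and 17.2 ± 3.51 for PolII_S5P (SD, n = 3 each; exact permutation p = 0.25 each). They rest on the TDG list of animal 9, which gives most of the TDG regions. Without animal 9, the 34 remaining TDG regions gave 11.7 points for H3K27ac and 79.9 for PolII_S5P, each higher in 2 of 2 animals, and 9.32 for MBD3, higher in 1 of 2. With TDG lists of 125 peaks each, the values were 18.5 for H3K27ac and 67.9 for PolII_S5P, higher in 3 of 3 animals, and 14.9 for MBD3, higher in 2 of 3. Only 33, 33 and 29 H3K4me1 peaks of animals 5, 7 and 9 then met a TDG region.

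**Figure D5:**
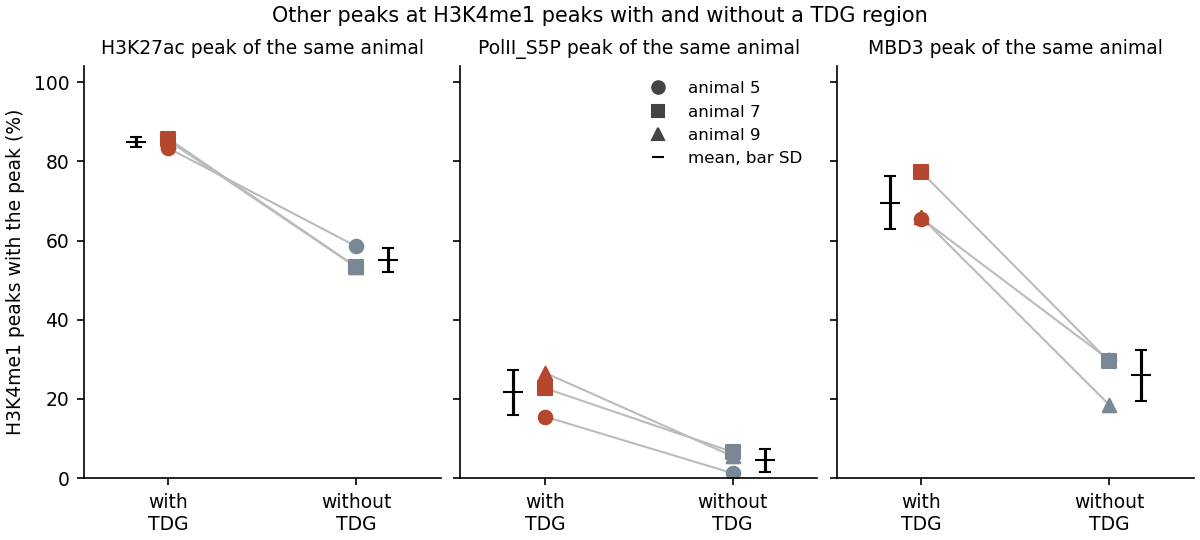
Percent of the H3K4me1 peaks of each animal (symbols) that overlap an H3K27ac, PolII_S5P or MBD3 peak of the same animal, for H3K4me1 peaks on a TDG region (left in each panel) and on none (right). Black marks are means with SD over 3 animals, and all values with TDG lie above those without, by 29.7, 17.2 and 43.6 points on average.

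The 417 regions were spread over all 19 autosomes. Chromosome 18 held 26 with H3K4me1 among its 42 TDG regions (61.9%), the highest share, and chromosome 19 held 5 among 29 (17.2%), the lowest. A TDG region of the same kind lay within 100 kb of 100 regions with H3K4me1 (24.0%) and of 187 without (26.6%). The largest run of regions with H3K4me1 had 6 members, at chromosome 18, 65124424 to 65234485, all with TDG in animal 9 only, H3K27ac and MBD3, and 3 of them with PolII_S5P. The largest run without H3K4me1 had 21. A run of 3 at chromosome 11, 3134289 to 3149483, had PolII_S5P at each region and neither H3K27ac nor MBD3. On chromosome 8 lay 4 regions between 20705945 and 20717503 and 3 between 20024573 and 20036151, all 7 with PolII_S5P. A run of 3 at chromosome 7, 59416704 to 59419878, had H3K27ac, PolII_S5P and MBD3 at each.

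The only region of the 417 with TDG in all 3 animals was at chromosome 10, 3059948 to 3060386. Its TDG folds were 1.59, 2.35 and 1.79 in animals 5, 7 and 9, among the weakest of each list. H3K4me1 was called there in animal 5 only, with a fold of 1.27 (list median 3.00), and H3K27ac and MBD3 in none. PolII_S5P was called in all 3 animals, with folds of 2.30, 1.59 and 1.89 against list medians of 3.82, 4.03 and 3.91. Close to it, another region at 3061448 to 3062008 had TDG in animals 5 and 7 (folds 1.69 and 2.03) and again neither H3K27ac nor MBD3. PolII_S5P was called at this second region in all 3 animals, with folds of 2.35, 3.04 and 1.98.

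Other regions shared by 2 animals differed in their TDG strength and in the peaks they carried. At chromosome 8, 20705945 to 20706219, TDG had folds of 8.11 in animal 5 and 5.09 in animal 9, and H3K4me1 folds of 9.01, 7.98 and 7.78 in animals 5, 7 and 9 were close to the strongest of their lists. H3K27ac and PolII_S5P were present in all 3 animals and MBD3 in 1. At chromosome 3, 126943356 to 126943741, TDG had folds of 7.103 in animal 7 and 5.75 in animal 9, with H3K4me1 and H3K27ac in 3 animals and PolII_S5P and MBD3 in 2 each. At chromosome 14, 18923627 to 18924311, TDG had folds of 4.90 in animal 5 and 9.06 in animal 9, where it was the strongest TDG peak on H3K4me1, with PolII_S5P in 3 animals, MBD3 in 1 and no H3K27ac. At chromosome 1, 78550381 to 78550770, the folds were 6.39 in animal 5 and 4.80 in animal 9, with H3K4me1, H3K27ac and PolII_S5P in every animal.

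The strongest regions seen in a single animal differed between animals. In animal 7 they were chromosome 7, 98946066 to 98946459 (fold 9.27), chromosome 8, 20035905 to 20036151 (9.21), and chromosome 2, 3050304 to 3050539 (7.25), all with PolII_S5P in that animal. H3K27ac was called in animal 9 only at the regions on chromosomes 7 and 8, and in animals 7 and 9 at that on chromosome 2. Animal 5 had chromosome 12, 4270863 to 4271514 (7.49), and chromosome 8, 20151845 to 20152066 (6.86), both with H3K4me1, H3K27ac and PolII_S5P in all 3 animals. Animal 9 had chromosome 1, 26727070 to 26727408 (7.38), with H3K4me1 in 1 animal and no other peak, and chromosome 4, 46777619 to 46778108 (7.17), with H3K4me1, H3K27ac and PolII_S5P in all 3 animals and no MBD3.

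The more usual make-up, H3K27ac with MBD3, was shown by 3 of the 5 best-ranked regions with H3K4me1 in all 3 animals. They lay at chromosome 14, 43154237 to 43154570, at chromosome 18, 69641331 to 69641629, and at chromosome 6, 113591945 to 113592227. TDG was called at each in animal 9, with folds of 7.02, 7.02 and 6.70. All 3 had H3K27ac in every animal and no PolII_S5P in any, and MBD3 was called in 2, 1 and 3 animals. At the third, the MBD3 folds were 10.7, 11.0 and 17.7 in animals 5, 7 and 9. The region with the longest stretch in H3K4me1, 861 bp at chromosome 9, 51681328 to 51682188, instead had PolII_S5P and MBD3 in all 3 animals and no H3K27ac, with a TDG fold of 4.08 in animal 7.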

How the data were processed

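ChIP-seq peak lists of 3 animals and 5 antibodies were analysed, 1 list per library. The submitters' processing notes name MACS2 2.2.7.1, Picard 2.18.29, SAMtools 1.16.1, Trim Galore 0.6.7 and bcl2fastq 2.20, and list the builds mm39 and hg38. The contig names belong to mm39. No aligner or peak-calling control is given in the sources used here. For each peak the authors deposited −log10 p and −log10 q values, a fold enrichment (a ratio), a whole-number score and a summit offset. The lowest −log10 q value of the deposited lists was 1.30 to 1.44. Depth is unknown. The deposited score was not used.

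TDG peaks on chromosomes 1 to 19 were merged where they overlapped by 1 bp, and regions met by an H3K4me1 peak of any library were the members. The members and lists were chosen with earlier results of these data known. Shares were computed per animal with the lists of the same animal, since equal numbers mark the same animal per the labels, and the replicates are separate animals. Of 8 main within-animal differences, 7 were tested by two-sided exact permutation (sign flips), and TDG recurrence is given without a test because the TDG lists formed the regions. The percentile differences of H3K27ac, PolII_S5P and MBD3 peaks, added after the data were seen, were tested in the same way. The smallest p is 0.25 with 3 animals and 0.5 with 2, so none could reach 0.05, and no adjustment over them was made for that reason. Percentiles are ranks of fold within a list. Regions were named by a rule that takes the members with TDG in most animals, those with H3K4me1 in all 3 animals, the strongest of each TDG library, the best of each combination, and those nearest to the limit of overlap. The 16 members with TDG in 2 or 3 animals were added after seeing the data. Alternatives covered the q threshold, the overlap rule, list lengths, neighbouring regions, chromosome X, width and fold classes, the pairing and each animal left out. Gene annotation and sequence on mm39 were not used here. Overlaps were first tested on simulated peaks. Computations ran in Python 3.11.15 with pandas 2.3.3, numpy 2.4.6, scipy 1.17.1 and matplotlib 3.10.9.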

Additional observations from a re-analysis of the deposited data

Results flagged for a closer look

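TDG regions on the sex chromosomes lie outside the comparisons above and also held H3K4me1. On chromosome X, 7 of 25 merged TDG regions had an H3K4me1 peak of any library. By animal, 1 of 2, 1 of 13 and 7 of 14 TDG peaks of animals 5, 7 and 9 did so. On chromosome Y, 6 of 13 TDG regions had an H3K4me1 peak, with 2 of 3, 0 of 3 and 4 of 9 TDG peaks in animals 5, 7 and 9. All 3 animals are labelled female, and the source of the peaks on chromosome Y was not tested.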

How the results depend on the processing

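The number of members depended most on the TDG lists. It was 417, and 76 with only peaks of −log10 q 5 or more, 43 with TDG lists of 125 peaks each, and 34 to 368 with 1 animal left out, the lowest without animal 9. Over 116 combinations of result and alternative, 112 kept the direction and the side of the threshold, or a count within 1.5 times, but no test here could pass the threshold, so this speaks to direction and size only. The exception besides the counts was MBD3 at TDG peaks with H3K4me1, which ranged from −33.9 to 6.92 points with 1 animal left out and turned positive without animal 5. It was −2.81 with MBD3 of any library. The cause was not tested. The pairing is by animal. With no replicate block the difference for H3K27ac at TDG peaks was the same 22.5 points (exact permutation p = 0.2 in place of 0.25). For MBD3 at TDG peaks the exact permutation p was 0.4 in place of 0.75. For PolII_S5P and fold rank at TDG peaks, and for each antibody at H3K4me1 peaks, it was 0.1 in place of 0.25. The smallest p of 3 against 3 is 0.1, so no call changed. With that q threshold, TDG recurrence differed by −46.1 points and PolII_S5P at H3K4me1 peaks by 37.6. With regions within 100 kb counted once, PolII_S5P at TDG peaks was higher in 2 of 3 animals (42.2 points), and without animal 5 in 1 of 2 (33.0). Within 5 classes of H3K4me1 width, H3K4me1 peaks with TDG exceeded those without by 22.4 points for H3K27ac, 15.4 for PolII_S5P and 37.2 for MBD3. Peaks carry no read counts, so depth could not be matched between animals.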
